A study of Mus musculus with 8 samples.

Results

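A set of 9 genes of the thrombospondin, plasminogen activation and coagulation systems was followed in bone marrow-derived dendritic cells (BMDCs) exposed to a drug that takes microtubules apart, namely *Thbs1*, *Fn1*, *Plau*, *Plaur*, *Serpinb2*, *F3*, *F10*, *F13a1* and *Thbd*. They are 9 of the 23356 genes of the deposited expression table and were taken from it by gene symbol. The set was chosen by its measured expression in these same samples, with earlier results known, so the values are a description of the 9 genes and no test was made of them. The table covers 8 RNA-seq libraries, 2 in each of 4 groups. Control WT and control GEF-H1-/- BMDCs received no drug for 5 h, and the other 2 groups, one of each genotype, were kept for 5 h with ansamitocin-P3 (AP3) at 100 nM. Ansamitocin-P3 is a maytansine-type compound that binds tubulin and destabilizes microtubules. GEF-H1, the product of *Arhgef2*, is a guanine nucleotide exchange factor for RhoA that is held inactive on microtubules and set free when they come apart. The question of the design is which part of the response to microtubule loss needs GEF-H1. Mice of both genotypes had a C57BL/6 background (C57BL/6N in the study's methods), GEF-H1-/- mice are knockouts of the whole animal, and the study states that mice were sex-matched and of both sexes. The cells of all groups had grown from bone marrow with GM-CSF and IL-4, and the floating and loosely attached cells were taken, a fraction that can hold cells other than dendritic cells.

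Plasmin, the protease that dissolves fibrin and cleaves matrix proteins, is made from plasminogen by the activators urokinase (*Plau*) and tissue plasminogen activator, and urokinase works at the cell surface when bound to its receptor (*Plaur*), while serpins such as PAI-2 (*Serpinb2*) block the activators. Coagulation starts when tissue factor (*F3*) binds factor VII and activates factor X (*F10*), which leads to thrombin, fibrin, and cross-linking of fibrin by factor XIII (*F13a1* encodes its A subunit). Thrombomodulin (*Thbd*) turns thrombin towards activation of the anticoagulant protein C. Thrombospondin-1 (*Thbs1*) and fibronectin (*Fn1*) are large secreted glycoproteins of the matrix, and monocytes, macrophages and activated dendritic cells are known sources of several of these proteins.

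Values are FPKM, fragment counts scaled by transcript length and by library size, which can be compared between genes because they are corrected for length. They measure RNA, and no protein level is part of these data. The table gives 1 FPKM per gene and group, into which the authors' program Cuffdiff had combined the 2 libraries, with a 95% interval. No value of a single library is given, so there is no SD and no p-value, and differences were not tested against the spread between duplicates. The study states a targeted sequencing depth, and the depth that the libraries reached is unknown. Groups are compared by the log2 ratio of FPKM + 1, a scale that makes changes of weakly expressed genes look smaller. A log2 ratio over 1 or under -1 (2-fold) counts as past the threshold, and the statement that 2 intervals did not overlap refers to the Cuffdiff intervals. The range after a log2 ratio runs between the most extreme ratios that these intervals allow. In all 4 groups the FPKM of each of the 9 genes lay within its own interval.

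Some properties of the groups bear on every comparison below. *Arhgef2* (chromosome 3, 88616207 to 88648052, GRCm38) was at 42.3 FPKM in control and 45.9 in treated WT BMDCs, against 4.59 and 4.16 in GEF-H1-/- BMDCs, which goes the way of the labels. Summed over the table, FPKM came to 739523 in treated WT BMDCs and to between 599331 and 617423 in the other 3 groups. Markers of other blood cells differed between the control groups of the 2 genotypes. Over all genes with at least 1 FPKM in a group, 1.88% were past the threshold in this comparison, in either direction. Of 7 neutrophil markers in the table, 3 were lower past the threshold in GEF-H1-/- control cells (*Camp*, *Ngp* and *Ltf*) and 2 were higher (*Mpo* and *Elane*, the latter with intervals down to 0). Their summed FPKM was 32422 in control and 38285 in treated WT, and 21831.5 and 22239.5 in GEF-H1-/- BMDCs. Most of that difference lies in *S100a8*, at 19401 and 10856 FPKM in the control groups, whose FPKM fell outside its own interval in every group, while *S100a9* was at 10678 and 10004. The platelet, macrophage, peritoneal-type macrophage and fibroblast lists, whose sums ran higher in GEF-H1-/- BMDCs, are given beside *Fn1*. Dendritic cell markers were present, with all 9 listed genes over the filter and a sum between 4114 and 6400 FPKM, and none of them passed the threshold between the control groups. Of these markers *Itgax*, *Flt3*, *Cd209a* and *Batf3* were at higher FPKM in control GEF-H1-/- cells and the other 5 at lower FPKM.

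With ansamitocin-P3, *Thbs1*, *Plaur* and *Serpinb2* were higher past the threshold in WT BMDCs, *Plau* was somewhat lower, and the other 5 had intervals that overlapped those of their controls. In GEF-H1-/- BMDCs 1 gene, *Plaur*, was past the threshold with the drug. Between genotypes, *Fn1* and *Serpinb2* were higher without the drug in GEF-H1-/- BMDCs. After the drug, *Thbs1* and *Plaur* were lower and *Fn1* and *F13a1* higher in GEF-H1-/- than in WT BMDCs. As counts, 3 of 9 genes were higher and 0 lower with the drug in WT BMDCs, where 4.94% of the 11397 genes that passed a filter of 1 FPKM in at least 1 group were past the threshold in either direction. In GEF-H1-/- BMDCs 1 gene was higher and 0 were lower, with 1.08% of all filtered genes past the threshold. Control GEF-H1-/- against control WT BMDCs gave 2 higher and 0 lower (1.88% of all genes), and treated GEF-H1-/- against treated WT BMDCs gave 2 higher and 2 lower (4.06%). The WT log2 ratio exceeded the GEF-H1-/- log2 ratio by more than 1 in 3 of the 9 genes (1.9% of all genes, in either direction). By intervals that did not overlap, the counts were 3 higher and 1 lower with the drug in WT (16.8% of all genes), 2 higher in GEF-H1-/- (3.7%), 4 higher between the control groups (4.74%), and 3 higher and 2 lower between the treated groups (13.7%). Over all genes the WT drug comparison had 417 higher and 146 lower past the threshold, and 273 and 355 when the groups were rescaled to the same total. Rescaling moved no count of the 9 genes. Since the genes were chosen on these same values, nothing is read from their counts against those shares. Of the 9 genes, *Thbd* failed the filter, *F13a1* passed it only through the GEF-H1-/- groups, *F3* passed it in every group but control WT, and the other 6 passed it in all 4 groups. Over the 9 genes the median log2 ratio with the drug was 0.20 in WT and 0.18 in GEF-H1-/- BMDCs, beside 0.00 and -0.01 over all filtered genes. The comparisons share groups and are not independent of each other.

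**Figure D1:**
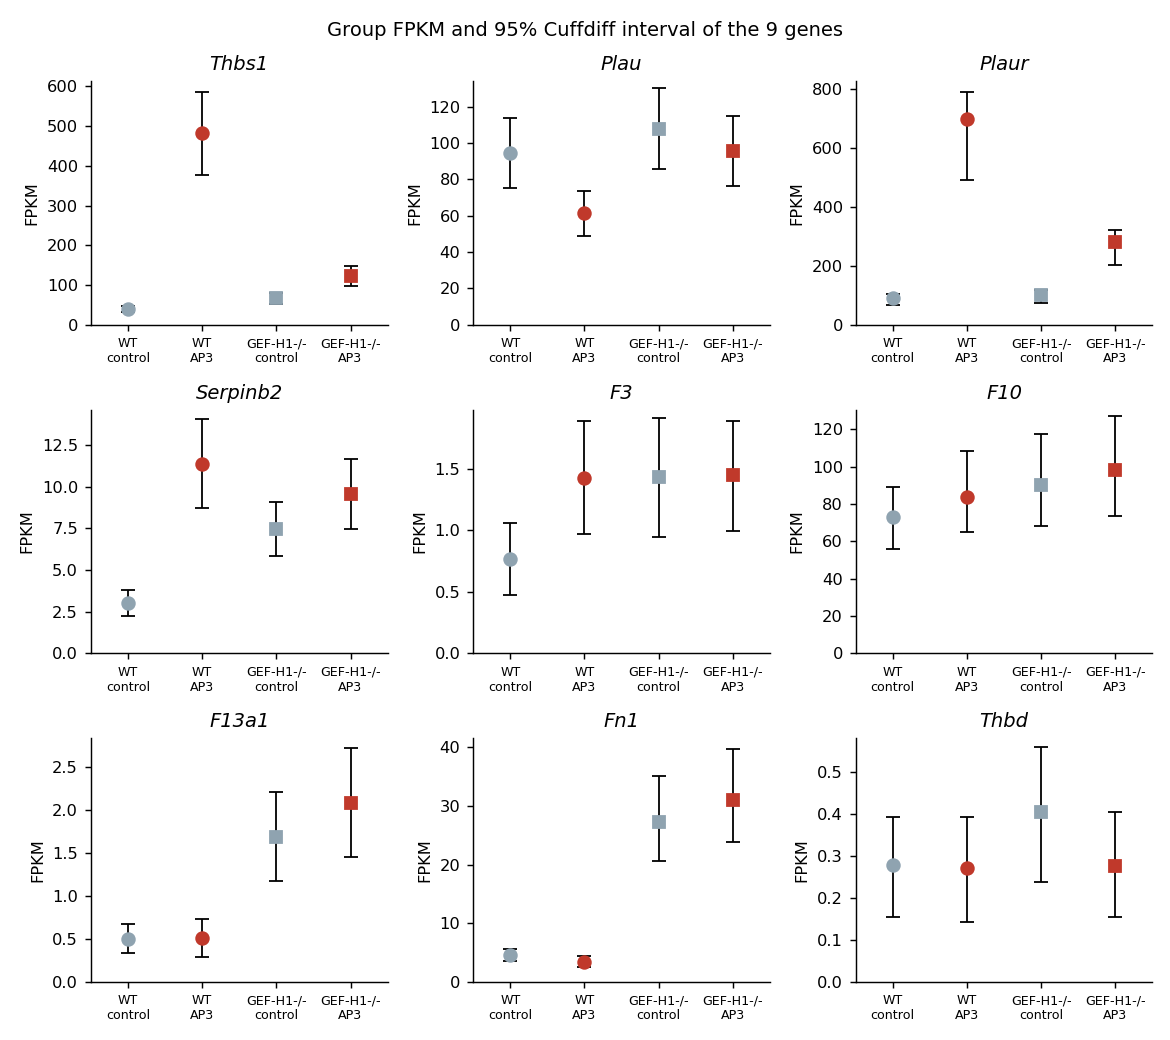
FPKM (vertical axis, starting at 0 and scaled for each gene) of the 9 genes in the 4 groups, with bars for the 95% Cuffdiff interval and 1 point for the 2 combined libraries of a group. *Thbs1* and *Plaur* stand highest in treated WT BMDCs at 482 and 699 FPKM. *Fn1* and *F13a1* are higher in both GEF-H1-/- groups than in both WT groups, *F13a1* at no more than 2.07 FPKM.

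**Figure D2:**
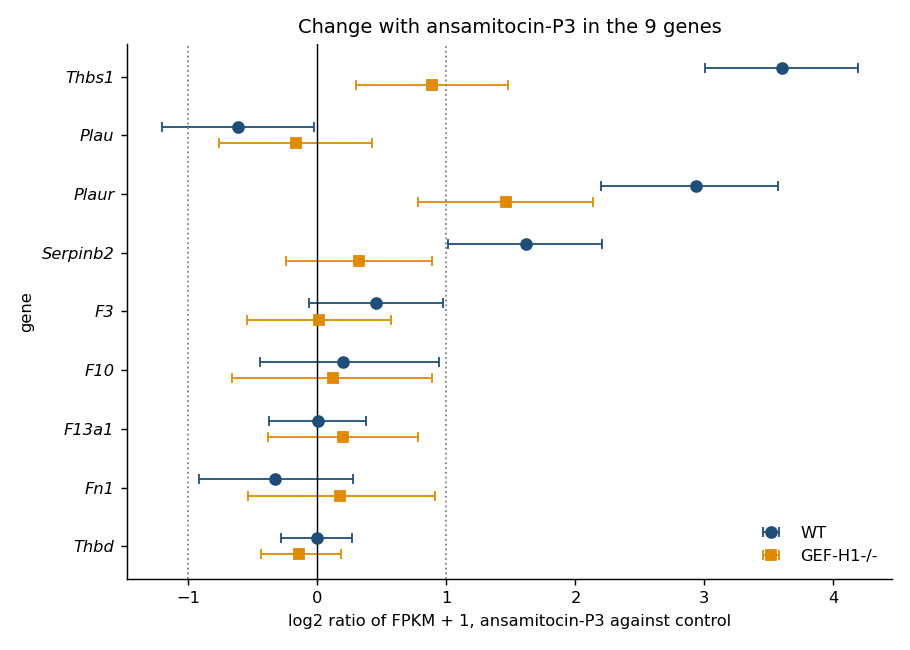
Log2 ratio of FPKM + 1, treated against control cells, for the 9 genes in WT (circles) and GEF-H1-/- BMDCs (squares). Horizontal bars are the range the Cuffdiff intervals allow and dotted lines mark the threshold at 1 and -1. *Thbs1*, *Plaur* and *Serpinb2* lie to the right of the line at 1 in WT, and *Plaur* alone does so in GEF-H1-/- BMDCs.

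The DNA in front of the genes is shown for the members whose promoter is held in the RefSeq table used here (GRCm38.p6, 250 bases before the start to 50 after it). It sets 2 genes that were past the threshold with the drug in WT BMDCs (*Plaur* and *Serpinb2*) beside 2 that were not (*F3* and *F10*). The table has 7 windows for 5 of the 9 genes, and *Thbs1*, *Plau*, *Fn1* and *Thbd* were not matched. In all, 6 motifs were searched on both strands, namely the AP-1 site TGAGTCA, the cAMP response element TGACGTCA, the TATA box TATAAA, the C/EBP motif TTNNGCAA, and, by name, the κB and CArG motifs. Capitals mark the matches.
Plaur, chr7:24462233-24462532, plus strand: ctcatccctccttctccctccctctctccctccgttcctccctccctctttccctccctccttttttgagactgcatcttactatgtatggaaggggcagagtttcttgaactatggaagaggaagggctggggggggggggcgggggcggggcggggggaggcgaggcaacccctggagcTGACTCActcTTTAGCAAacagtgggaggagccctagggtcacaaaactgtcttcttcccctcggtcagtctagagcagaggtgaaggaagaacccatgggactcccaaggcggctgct
Serpinb2, chr1:107511173-107511472, plus strand: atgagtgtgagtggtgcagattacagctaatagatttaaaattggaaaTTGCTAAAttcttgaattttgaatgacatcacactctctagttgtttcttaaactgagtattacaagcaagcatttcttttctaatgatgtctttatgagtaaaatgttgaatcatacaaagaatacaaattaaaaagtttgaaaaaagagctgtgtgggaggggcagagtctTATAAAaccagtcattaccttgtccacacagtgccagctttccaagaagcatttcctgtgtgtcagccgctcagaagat
F3, chr3:121723287-121723586, plus strand: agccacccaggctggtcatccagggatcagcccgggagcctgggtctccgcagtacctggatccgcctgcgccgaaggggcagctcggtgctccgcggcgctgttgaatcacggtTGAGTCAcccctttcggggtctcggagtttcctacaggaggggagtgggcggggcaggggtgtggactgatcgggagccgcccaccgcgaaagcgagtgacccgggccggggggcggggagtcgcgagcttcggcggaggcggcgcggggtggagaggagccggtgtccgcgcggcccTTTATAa
F10, chr8:13037058-13037357, plus strand: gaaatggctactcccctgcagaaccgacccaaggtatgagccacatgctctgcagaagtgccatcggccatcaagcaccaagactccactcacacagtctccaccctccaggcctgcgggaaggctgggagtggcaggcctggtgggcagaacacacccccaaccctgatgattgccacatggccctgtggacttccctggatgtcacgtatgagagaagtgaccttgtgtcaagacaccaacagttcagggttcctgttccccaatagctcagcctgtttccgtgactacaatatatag
The *Plaur* window holds an AP-1 site on the opposite strand 69 bases before the start and a C/EBP motif 59 bases before it. The *F3* window holds an AP-1 site 135 bases before the start and, 43 bases after it, a TATA motif on the opposite strand. A relation between these motifs and the drug ratios was not tested. In the *Serpinb2* window a TATA box lies 29 bases before the start and a C/EBP motif on the opposite strand 202 bases before it. A second *Serpinb2* window, from a start further downstream, holds the same TATA box and a C/EBP motif 19 bases before its start. No match was found in the *F10* window or in either *F13a1* window. Of all 32851 windows in the table, 5.2% hold the AP-1 site, 1.79% the cAMP response element, 13.6% the TATA box, 10.8% the C/EBP motif, 4.51% the κB and 1.63% the CArG motif. A match says only that these letters are present.

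The ends of the transcripts were searched for the AU-rich nonamer TTATTTATT, a motif found in many short-lived messenger RNAs of inflammation. This search was chosen after the values had been seen. In the annotation used (GENCODE M21, GRCm38, the transcript with the longest coding part of each gene), 6.91% of 20658 protein-coding genes carry it in the 3′ UTR, and 3 of the 9 genes do, each once. The sites are shown with 10 bases on each side, in the direction of the gene and with the nonamer in capitals.
Thbs1, chr2:118126155-118126183, plus strand: taaatacagaTTATTTATTaaccctgttc
Serpinb2, chr1:107525197-107525225, plus strand: ttttacagtgTTATTTATTgtttatataa
Thbd, chr2:148404537-148404565, minus strand: ttgtacatatTTATTTATTggagtttcgc
The nonamer begins at base 1136 of 2104 of the *Thbs1* 3′ UTR, at base 266 of 657 in *Serpinb2* and at base 1658 of 1747 in *Thbd*. It is thus shared by 2 genes that were higher with the drug in WT BMDCs and 1 gene that stayed under 1 FPKM. The shorter pentamer ATTTA was densest in *Serpinb2* (9.13 per kb of 3′ UTR) and *F3* (8.65), against 4.03 in *Plaur*, 2.85 in *Thbs1* and a median of 1.13 over genes. *F10*, with a 3′ UTR of 18 bases, has none.

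*Thbs1* encodes thrombospondin-1, which binds CD36 and CD47 and can activate latent TGF-β. The gene lies on the plus strand of chromosome 2 (118111922 to 118127133) and has 22 exons. Its FPKM was 38.7 (95% interval 31.2 to 46.2) in control WT, 482 (378 to 585) in treated WT BMDCs, and, without GEF-H1, 66.3 (52.8 to 79.7) in control and 124 (98.3 to 149) in treated cells. No 2 of these intervals that belong to a comparison overlapped, and the treated WT group stood far above the other 3. In WT BMDCs the treated level was 12.4-fold the control level, a log2 ratio of 3.60 (range 3.01 to 4.19). In GEF-H1-/- BMDCs it was 1.87-fold, a log2 ratio of 0.89 (0.30 to 1.48), under the threshold. The WT log2 ratio was the larger by 2.71, and the GEF-H1-/- ratio was 0.247 of it. This was the widest gap among the 9 genes. Control GEF-H1-/- cells started from a higher level than control WT cells (log2 ratio 0.76), and after the drug they were lower (log2 ratio -1.95). In bulk RNA, a difference between genotypes in the number of cells that make a transcript cannot be told apart from a difference in the amount per cell, here and for the genes below. Among the 11397 filtered genes, 2241 had a higher FPKM than *Thbs1* in control WT BMDCs and 214 in treated WT BMDCs. In control and treated GEF-H1-/- BMDCs the numbers were 1280 and 664.

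Of the other thrombospondins, *Thbs2*, *Thbs3* and *Thbs4* did not exceed 0.125 FPKM in any group. *Comp*, a thrombospondin of cartilage matrix, was at 1.51, 0.467, 0.880 and 0.484 FPKM in control WT, treated WT, control GEF-H1-/- and treated GEF-H1-/- BMDCs, with intervals apart with the drug in WT BMDCs (log2 ratio -0.77). The receptors of thrombospondin-1 ranged from *Lrp1* (5.69 to 11.4 FPKM) and *Itgav* (6.52 to 16.5) to *Cd36* and *Cd47*. *Cd36*, a scavenger receptor, was at 194, 338, 194 and 231 FPKM in control WT, treated WT, control GEF-H1-/- and treated GEF-H1-/- BMDCs, with log2 ratios for the drug of 0.80 in WT and 0.25 in GEF-H1-/- BMDCs. *Cd47*, which also gives phagocytes an inhibitory signal through SIRPα, was at 129, 158, 115 and 126 FPKM. Its intervals overlapped in the 4 comparisons. The ratio of *Thbs1* to *Cd36* FPKM was 0.199 in control WT and 1.43 in treated WT BMDCs, and 0.342 and 0.535 in GEF-H1-/- BMDCs. In the list of 13 thrombospondins and receptors, 10 passed the filter, and those past the threshold with the drug in WT BMDCs were *Thbs1* and *Itgb3*. *Itgb3*, the integrin β3 chain that binds thrombospondin, fibronectin and vitronectin, was at 25.4, 79.9, 24.9 and 26.3 FPKM in the same order of groups. Its log2 ratio with the drug was 1.61 (1.09 to 2.13) in WT and 0.08 (-0.43 to 0.59) in GEF-H1-/- BMDCs. Neither genotype gave a log2 ratio past the threshold for calreticulin (*Calr*, at most 558 FPKM), a thrombospondin-binding protein of the cell surface that is otherwise a chaperone.

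*Plaur*, the gene of the urokinase receptor, a protein held in the membrane by a lipid anchor, had the second largest log2 ratio with the drug among the 9 genes and the highest treated level. It lies on the plus strand of chromosome 7 (24462500 to 24475873, 7 exons). Its FPKM was 90.4 (65.6 to 106) in control WT, 699 (489 to 789) in treated WT BMDCs, and, without GEF-H1, 101 (72.5 to 117) in control and 281 (201 to 322) in treated cells. The control groups overlapped, and both treated groups lay above them. The treated level was 7.72-fold the control level in WT, a log2 ratio of 2.94 (2.20 to 3.57), and 2.78-fold in GEF-H1-/- BMDCs, a log2 ratio of 1.47 (0.78 to 2.14). *Plaur* was the one gene of the 9 that was past the threshold in GEF-H1-/- BMDCs. The GEF-H1-/- log2 ratio was 0.499 of the WT one, a larger share than for *Thbs1* (0.247) or *Serpinb2* (0.200). Treated GEF-H1-/- cells had 0.402 of the FPKM of treated WT cells, a log2 ratio of -1.31. Only 153 of the filtered genes had a higher FPKM than *Plaur* in treated WT BMDCs, against 917 in control WT BMDCs, and 814 in control and 296 in treated GEF-H1-/- BMDCs.

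The transcript of urokinase itself was not higher with the drug. *Plau* (chromosome 14, 20836662 to 20843388, plus strand, 11 exons) was at 94.6 (75.0 to 114) and 61.4 (48.8 to 73.7) FPKM in control and treated WT BMDCs. In GEF-H1-/- BMDCs it was at 108 (85.6 to 130) in control and 95.8 (76.1 to 115) in treated cells. Treated WT was the lowest of the 4 groups, and its interval stayed just under that of control WT and under that of treated GEF-H1-/- BMDCs. The log2 ratio with the drug was -0.61 (-1.21 to -0.03) in WT and -0.17 in GEF-H1-/- BMDCs, both short of the threshold. The FPKM of the receptor divided by that of urokinase was therefore 0.956 in control WT and 11.4 in treated WT BMDCs, and 0.938 and 2.93 in control and treated GEF-H1-/- BMDCs.

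*Serpinb2* encodes PAI-2, a serpin found mostly inside cells that inhibits urokinase and tissue plasminogen activator and is known as an inflammation-induced gene of macrophages. It lies on the plus strand of chromosome 1 (107511423 to 107525600, 8 exons). The FPKM was 3.04 (2.26 to 3.82) in control WT, 11.4 (8.71 to 14.0) in treated WT BMDCs, and, without GEF-H1, 7.44 (5.83 to 9.05) in control and 9.56 (7.47 to 11.6) in treated cells. Control WT was the low group, with an interval under all others, and those of the other 3 overlapped at least in part. The log2 ratio with the drug was 1.61 (1.01 to 2.20) in WT and 0.32 (-0.25 to 0.89) in GEF-H1-/- BMDCs, 3.74-fold and 1.29-fold. Between the control groups it was 1.06, a 2.44-fold higher level in GEF-H1-/- BMDCs, and between the treated groups it was -0.23 with intervals that overlapped. The smaller ratio in GEF-H1-/- BMDCs thus went with a higher control level, while the treated levels of the genotypes were alike to within their intervals. The call between the control groups ended with a pseudocount of 5 FPKM (log2 ratio 0.63), as did that of the difference between genotypes in the drug ratio (1.29, and 0.80 with 5 FPKM).

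Of the 15 genes reported for plasminogen activation and its inhibitors, 10 passed the filter. With the drug, *Plaur* and *Serpinb2* were past the threshold in WT BMDCs, and *Plaur* and *Plat* in GEF-H1-/- BMDCs. *Plat*, the gene of tissue plasminogen activator, had the larger ratio in GEF-H1-/- BMDCs. It was at 0.0570 and 0.477 FPKM in control and treated WT and at 0.0786 and 1.48 in control and treated GEF-H1-/- BMDCs. Its log2 ratio was 0.48 (0.19 to 0.75) in WT and 1.20 (0.82 to 1.55) in GEF-H1-/- BMDCs, and it passed the filter only through treated GEF-H1-/- cells. At these low levels the ratios depend on the pseudocount, being 1.88 and 3.14 with 0.1 FPKM and 0.12 and 0.35 with 5 FPKM. Transcripts of plasminogen receptors of the cell surface were abundant in every group, with *S100a10* between 467 and 842 FPKM and its partner *Anxa2* between 556 and 807. Their log2 ratios with the drug were 0.39 and 0.54 in WT and 0.29 and 0.20 in GEF-H1-/- BMDCs, all under the threshold and with intervals that overlapped. *Plg* (plasminogen) and *Cpb2*, which the liver supplies to plasma, were listed at 0 in all groups.

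The initiating genes of coagulation, *F3*, *F7* and *F10*, were not past the threshold in any comparison. *F3*, the gene of tissue factor (chromosome 3, 121723537 to 121735052, plus strand, 6 exons), was at 0.770 (0.472 to 1.06) FPKM in control WT and between 1.43 and 1.45 in the other 3 groups. All 4 intervals overlapped. The treated WT level of *F3* was 1.86-fold the control level. Its log2 ratio of 0.46 depends on the pseudocount, being 0.81 with 0.1 FPKM and 0.16 with 5 FPKM. *F10* (chromosome 8, 13037308 to 13056676, plus strand, 9 exons) was at 72.9 (56.1 to 89.1), 83.9 (65.1 to 108), 90.0 (68.1 to 118) and 97.9 (73.8 to 127) FPKM in control WT, treated WT, control GEF-H1-/- and treated GEF-H1-/- BMDCs. Factor X was thus a transcript of high level in these cells, with 879 to 1147 of the filtered genes above it, and its intervals overlapped in every comparison. Its log2 ratio with the drug in WT BMDCs, 0.20, became -0.04 when the groups were rescaled to the same total. *F7*, whose protein is the partner of tissue factor, was at 33.1 and 24.4 FPKM in control and treated WT and at 49.3 and 42.5 in control and treated GEF-H1-/- BMDCs. Its intervals did not overlap between genotypes in either condition, though the log2 ratios of 0.56 and 0.78 were under the threshold. *F5*, the cofactor of factor X, lay between 1.98 and 4.05 FPKM.

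*F13a1*, the A subunit of factor XIII, a transglutaminase that platelets and macrophages carry inside the cell, had intervals apart between genotypes and overlapping ones between control and treated cells. It lies on the minus strand of chromosome 13 (36867178 to 37050244, 15 exons). Its FPKM was 0.500 (0.329 to 0.669) and 0.505 (0.286 to 0.727) in control and treated WT, and 1.68 (1.17 to 2.20) and 2.07 (1.45 to 2.71) in control and treated GEF-H1-/- BMDCs. Both GEF-H1-/- intervals lay above both WT intervals. The level in GEF-H1-/- BMDCs was 3.37-fold that of WT in control and 4.11-fold in treated cells, log2 ratios of 0.84 and 1.03. These values of a gene near 1 FPKM depend on the pseudocount, being 1.57 and 1.85 with 0.1 FPKM and 0.28 and 0.36 with 5 FPKM. The fibrinogen chains *Fga*, *Fgb* and *Fgg*, which factor XIII cross-links in clots, were listed at 0 in all groups, as were *F11*, *F12* and *F13b*. Of the 21 genes of the coagulation list 10 passed the filter. None of the 21 was past the threshold with the drug in either genotype, and *F13a1* was the one past it between the treated groups.

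*Thbd*, the gene of thrombomodulin (chromosome 2, 148404471 to 148408188, minus strand, 1 exon), stayed low throughout. It was at 0.278 (0.155 to 0.393) and 0.272 (0.143 to 0.393) FPKM in control and treated WT, and at 0.404 (0.238 to 0.560) and 0.275 (0.155 to 0.405) in control and treated GEF-H1-/- BMDCs. All intervals overlapped, and the log2 ratios lay between -0.14 and 0.14. Its partner in protein C activation, the endothelial protein C receptor *Procr*, was expressed and differed. *Procr* was at 5.31 and 30.9 FPKM in control and treated WT, a log2 ratio of 2.34 (1.69 to 2.99), and at 3.75 and 6.43 in control and treated GEF-H1-/- BMDCs, a log2 ratio of 0.65 (-0.01 to 1.29). It was the one gene past the threshold with the drug among the 14 listed for the anticoagulant pathway, 6 of which passed the filter, and the gene of protein C itself (*Proc*) was listed at 0. *Tfpi*, the inhibitor of the tissue factor complex, was at 2.42, 1.51, 2.62 and 2.72 FPKM in control WT, treated WT, control GEF-H1-/- and treated GEF-H1-/- BMDCs, with overlapping intervals between control and treated cells. Among the 4 protease-activated receptors, through which thrombin and other proteases signal, *F2rl2* (13.5 to 26.9 FPKM) and *F2r* (7.77 to 10.8 FPKM) were the highest and none was past the threshold in any comparison.

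*Fn1*, the gene of fibronectin, showed the largest difference between genotypes among the 9 genes and none past the threshold with the drug. It lies on the minus strand of chromosome 1 (71585473 to 71653234) and has 46 exons. Its FPKM was 4.53 (3.47 to 5.58) in control WT, 3.41 (2.49 to 4.41) in treated WT BMDCs, and, without GEF-H1, 27.2 (20.6 to 35.1) in control and 31.0 (23.8 to 39.8) in treated cells. The genotypes were far apart and the intervals of control and treated cells overlapped in each. The GEF-H1-/- level was 6.02-fold the WT level in control cells, a log2 ratio of 2.35 (1.72 to 3.01), and 9.08-fold in treated cells, a log2 ratio of 2.86 (2.19 to 3.55). The log2 ratios with the drug were -0.33 in WT and 0.18 in GEF-H1-/- BMDCs.

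The genotype difference of *Fn1* and *F13a1* went with differences in marker genes of other cell types. Of 12 platelet and megakaryocyte markers, 5 were past the threshold between the control groups, higher in GEF-H1-/- BMDCs (*Pf4*, *Ppbp*, *Itga2b*, *Gp5* and *Gp9*, beside 1.88% of all genes), with a median log2 ratio of 0.99 over the 11 that passed the filter. Their summed FPKM was 64.1 and 102 in control and treated WT and 167 and 181 in control and treated GEF-H1-/- BMDCs. Most of it came from *Pf4* and *Ppbp*. *Pf4* itself, platelet factor 4, was at 24.5, 30.2, 70.9 and 75.3 FPKM in that order. Of the 9 macrophage markers in the table, the C1q genes *C1qa*, *C1qb* and *C1qc* were past the threshold and higher in GEF-H1-/- control cells, and the sums were 244, 192, 385 and 360 FPKM. The fibroblast list of 8 genes summed to 0.664, 0.432, 4.45 and 3.83 FPKM, and *Col1a2* was the 1 gene of it over the filter, at 0.0895, 0.0228, 1.96 and 1.84 FPKM. *Col1a2* passed the filter only through the GEF-H1-/- groups. The 7 markers of peritoneal-type macrophages summed to 35.4, 29.1, 58.3 and 60.4 FPKM, most of it from *Alox15*, while the defining factor *Gata6* stayed at or under 0.118. *Cd5l* was the 1 gene of that list past the threshold between the control groups, at 0.327 FPKM in WT and 2.02 in GEF-H1-/- cells (log2 ratio 1.19). It too passed the filter only through the GEF-H1-/- groups. For the 7 endothelial markers the sums were 49.4, 67.2, 58.4 and 63.1, mostly *Pecam1*, with *Cdh5* at or under 0.0428. The part of these cell types in the levels of *Fn1* and *F13a1* was not tested. With the drug, *Ppbp* was past the threshold among the platelet markers in WT BMDCs, at 18.0 FPKM in control and 46.0 in treated cells, and no gene of the list in GEF-H1-/- BMDCs.

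**Figure D3:**
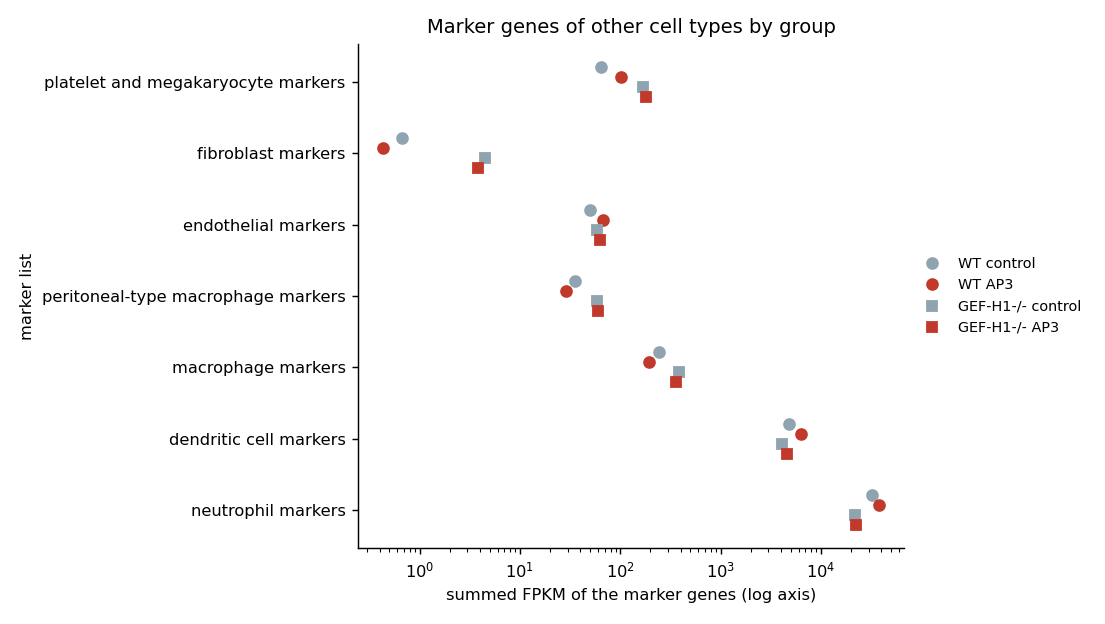
Summed FPKM (horizontal log axis) of 7 lists of marker genes in the 4 groups, 1 point per group without an error bar. The platelet, fibroblast, macrophage and peritoneal-type macrophage lists are higher in both GEF-H1-/- groups than in both WT groups, as *Fn1* and *F13a1* are. The fibroblast sums reach only 4.45 FPKM. The platelet sum is mostly *Pf4* and *Ppbp* and the peritoneal-type macrophage sum mostly *Alox15*. The dendritic cell sum is mostly *Cd74* and the neutrophil sum mostly *S100a8* and *S100a9*.

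Transcripts of several receptors and cross-linkers of fibronectin were higher with the drug in WT BMDCs, where *Fn1* was at 4.53 and 3.41 FPKM in control and treated cells. Of the 12 genes in this list 10 passed the filter, and 6 were past the threshold with the drug in WT and 0 in GEF-H1-/- BMDCs, beside 4.94% and 1.08% of all filtered genes, for a list chosen with results known. *Itga5* and *Itgb1*, the chains of the classical fibronectin receptor, were at 18.9 and 130 FPKM in control WT and at 46.0 and 292 in treated WT BMDCs, log2 ratios of 1.24 (0.68 to 1.80) and 1.16 (0.56 to 1.79). In GEF-H1-/- BMDCs their log2 ratios were 0.68 and 0.44. *Sdc4*, a heparan sulphate proteoglycan that binds fibronectin together with this integrin, had log2 ratios of 1.07 (0.38 to 1.73) in WT and 0.48 in GEF-H1-/- BMDCs, and *Itgb3*, given above, completed the receptors past the threshold. Of the filtered receptor chains not past it, *Itgav* had log2 ratios of 0.86 in WT and 0.55 in GEF-H1-/- BMDCs. *Itga4* went the other way in WT BMDCs, at 8.01 FPKM in control and 6.02 in treated cells (log2 ratio -0.36, with overlapping intervals). Its log2 ratio in GEF-H1-/- BMDCs was 0.26. *Tgm2*, a transglutaminase that cross-links fibronectin and serves as an integrin co-receptor, was at 67.1 and 544 FPKM in control and treated WT, a log2 ratio of 3.0 (2.40 to 3.60), and at 190 and 345 in control and treated GEF-H1-/- BMDCs, a log2 ratio of 0.86 (0.22 to 1.5). As for *Thbs1*, its control level was higher in GEF-H1-/- BMDCs, with a log2 ratio of 1.48 and intervals of 53.1 to 81.2 against 148 to 232 FPKM. *Tgm1*, the transglutaminase best known from the skin, was at 3.43, 16.3, 3.05 and 5.94 FPKM in the 4 groups, with log2 ratios for the drug of 1.96 (1.33 to 2.59) in WT and 0.78 (0.08 to 1.47) in GEF-H1-/- BMDCs. When the groups were rescaled to the same total, the WT calls of *Itgb1* (0.93) and *Sdc4* (0.84) ended. The FPKM of *Tgm2* was 113 to 1078 times that of *F13a1*, the third transglutaminase of the list. As *F13a1* was at only 0.500 and 0.505 FPKM in control and treated WT BMDCs, the size of this ratio is uncertain there.

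**Figure D4:**
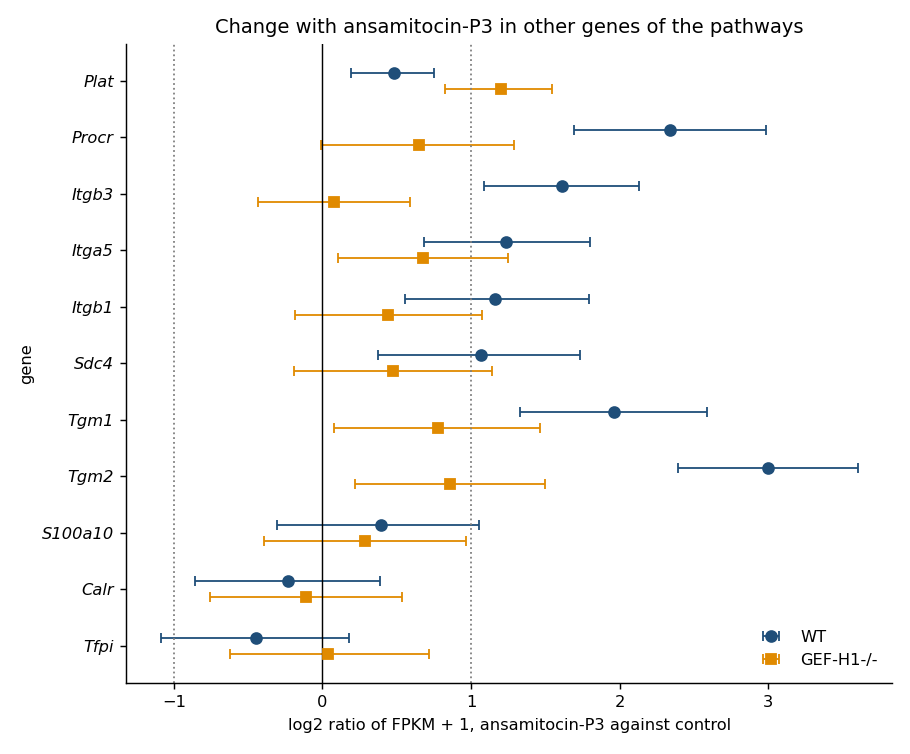
Log2 ratio of FPKM + 1, treated against control cells, for 11 other genes of the pathway lists in WT (circles) and GEF-H1-/- BMDCs (squares), with bars for the range that the Cuffdiff intervals allow and dotted lines at 1 and -1. *Tgm2* (3.0) and *Procr* (2.34) lie furthest to the right in WT BMDCs, and *Plat* is the one gene past the line in GEF-H1-/- BMDCs only.

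Over the 6 lists together, 66 genes other than the 9 are reported, of which 37 passed the filter and 10 were listed at 0 in all groups. With the drug 7 were higher past the threshold in WT BMDCs and 0 lower (4.94% of all genes in either direction), with a median log2 ratio of 0.24 over the genes that passed the filter. In GEF-H1-/- BMDCs 1 was higher (*Plat*) and 0 lower (1.08% of all genes), with a median of 0.09. Between the control groups 1 was higher in GEF-H1-/- (*Tgm2*, 1.88% of all genes) and between the treated groups 3 were lower (*Procr*, *Itgb3* and *Tgm1*, 4.06%). The *Tgm1* call between the treated groups, -1.32, ended with a pseudocount of 5 FPKM (-0.96). The WT log2 ratio exceeded the GEF-H1-/- one by more than 1 for 4 of them (1.9% of all genes, in either direction), namely *Tgm2*, *Procr*, *Itgb3* and *Tgm1*, the last of which was at 0.99 after rescaling to the same total and at 0.89 with a pseudocount of 5 FPKM.

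The order of the 9 genes by FPKM changed between groups. In control WT BMDCs *Plau*, *Plaur* and *F10* came first with intervals that overlapped between neighbours, followed by *Thbs1*, then *Fn1* and *Serpinb2*, which overlapped, and last *F3*, *F13a1* and *Thbd*, of which neighbours overlapped. In treated WT BMDCs *Plaur* and *Thbs1* led, with overlapping intervals, and *F10* and *Plau* followed at a distance. In control GEF-H1-/- BMDCs *Plau*, *Plaur*, *F10* and *Thbs1* formed a chain of overlapping neighbours, with *Fn1* next. In treated GEF-H1-/- BMDCs *Plaur* stood alone at the top, *Thbs1*, *F10* and *Plau* overlapped as neighbours, and *Fn1* came next. *Serpinb2* was above *Fn1* in treated WT and below it in both GEF-H1-/- groups, with intervals that did not overlap.

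For the 6 genes of the set with at least 5 FPKM in a group, the genes with the most similar pattern were sought among 8816 genes, by the Euclidean distance of centred log2(FPKM + 1) over the 4 groups. A distance over 4 values ranks likeness only and was not tested. The closest to *Thbs1* were *Cxcl2* (distance 0.46), *Clec4d* (0.53) and *Clec4e* (0.59). *Cxcl2* is a chemokine that draws neutrophils and the other pair are C-type lectin receptors of myeloid cells. The closest to *Plaur* were *Satb1* (0.28), *Il6* (0.29) and *Hbegf* (0.33), and the closest to *Serpinb2* were the chemokine gene *Ccl9* (0.03), *Gm10872* (0.19) and *Ccl6* (0.21). *Fn1* was closest to *Fcer1a* (0.26), which encodes the α chain of the high-affinity IgE receptor of mast cells and basophils, then to *Mgp* (0.39) and *C1qa* (0.42). *Plau* and *F10*, whose values spread little over the groups, had close neighbours at distances between 0.02 and 0.04, among them *Lrpprc* for *Plau* and *Tmem185b* for *F10*. *F3*, *F13a1* and *Thbd* did not reach 5 FPKM in any group and were not part of this search.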

How the data were processed

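RNA from 8 libraries of BMDCs, 2 per group, was sequenced by the authors as strand-specific, polyadenylated, paired-end libraries. The deposited FPKM values were made by the authors with Cuffdiff (version 1.05 in the submitters' processing notes, build mm10), which combined the libraries of a group. The aligner and annotation of this table are not given in the sources used here. The deposited interval bounds are in FPKM too and stand as the error of a value. Gene loci follow GRCm38, with starts counted from 1. The columns for WT cells name no genotype and were assigned by elimination.

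Of 23356 genes, 107 with a Cuffdiff status other than OK and those under 1 FPKM in every group were left out, which kept 11397. The log2 ratio of FPKM + 1 was taken for 5 comparisons and counted past 1 or -1. The design held limma for tables with separate libraries; the values are combined per group, so no test was run. The members and the gene lists (6 of pathways, 7 of cell type markers) were chosen with earlier results of these data known. Besides the 9 members, genes of the pathway lists were named when past the threshold with the drug in either genotype or between the control groups, when among the 2 with the highest FPKM in control WT, and *Plat*, *Tfpi* and *Procr* always. A further gene of these lists is not reported here. Genes named otherwise were chosen after their values were seen. Other pseudocounts (0.1 and 5 FPKM), leaving out the filter or raising it to 5 FPKM, 2 rescalings, a threshold of 1.5-fold, intervals that do not overlap, and, added after seeing the data, a table without small RNA genes were tried. The code (Python 3.11.15, pandas 2.3.3, numpy 2.4.6, matplotlib 3.10.9) was tested on simulated data. The depth that the libraries reached is unknown, and the precision is that of the Cuffdiff intervals, whose median width was 45.2% to 45.5% of the FPKM.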

Additional observations from a re-analysis of the deposited data

How the results depend on the processing

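No paired analysis was possible because the table gives 1 combined value per group, and for the same reason leaving out single libraries was not run. Of the values of single members under the alternatives, 270 stayed within the range their Cuffdiff intervals allow and 5 did not, and no member's value past the threshold changed direction. Those 5 were the genotype ratios of *F13a1* with either pseudocount, given with that gene, and of *Fn1* between the treated groups with 5 FPKM (2.10). For the 11 named pathway genes the numbers were 369 and 6, the latter all *Plat* with another pseudocount. Changes of the filter and the table without small RNA genes leave a gene's own value as it was, so those entries stayed by construction. Only the pseudocounts and the rescalings could move a value. The counts of the 9 genes moved by over 1.5 times in 3 cases. With a pseudocount of 5 FPKM, 1 gene in place of 2 was past the threshold between the control groups. With a threshold of 1.5-fold, 2 in place of 1 were past it with the drug in GEF-H1-/- BMDCs, and 4 in place of 2 between the control groups. With a pseudocount of 5 FPKM or a filter of 5 FPKM the count between the treated groups was 3 in place of 4, without *F13a1*, and a filter of 5 FPKM left no value for *F3*, *F13a1* and *Thbd*. Rescaling to the same total without small RNA genes shifted the median of all genes by -0.20 with the drug in WT and by 0.19 between the treated groups, and *Thbs1*, *Plaur* and *Serpinb2* then had WT log2 ratios of 3.37, 2.70 and 1.39. The share of calls that were higher over all genes went from 74.1% to 43.5% with the drug in WT, from 49.2% to 75.5% between the treated groups, and from 71.8% to 50.5% for the difference between genotypes. Over all genes, 563, 123, 214, 463 and 216 were past the threshold in the 5 comparisons, in the order of the report. These were 956, 212, 372, 801 and 387 with a pseudocount of 0.1 FPKM, 318, 77, 101, 206 and 123 with 5 FPKM, and 2017, 454, 600, 1687 and 935 with the 1.5-fold threshold. With the drug in GEF-H1-/- BMDCs 74 were past it without small RNA genes and 70 with intervals that did not overlap as well, and for the difference between genotypes 141 with such intervals. Genes near 1 FPKM (*F3*, *F13a1*, *Thbd*, *Plat*) are the least certain.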
